A study of Mus musculus with 12 samples.

Results

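The PDZ-LIM genes encode adaptor proteins of the actin cytoskeleton. 6 of them were taken by gene name from the 24421 genes of the table, namely Pdlim4, Pdlim1, Pdlim2, Pdlim5, Pdlim7 and Ldb3. Pdlim4 was picked because it had one of the largest rises in DP thymocytes of the Bcl6 knockout, so its DP values are given as a description with no test. The same holds for the difference between genotypes in DP of the other 5. A PDZ domain at one end of these proteins binds alpha-actinin or other actin-associated proteins, and LIM zinc fingers at the other end bind kinases and further partners. ALP-type members (Pdlim1, Pdlim2, Pdlim3 and Pdlim4) carry a single LIM domain, and Enigma-type members (Pdlim5, Pdlim7 and Ldb3) carry several. In striated muscle they sit at the Z-disc. In other cells they are found on stress fibres and at adhesions, and Pdlim2 is known in T cells as a nuclear ubiquitin ligase adaptor for Rela and Stat4.

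RNA was measured in sorted thymocytes of mouse embryos in 12 libraries, 2 for each of 6 groups. All groups were Rag1KO, which leaves thymocytes without a rearranged T cell receptor, and Bcl6fl/fl, on a C57BL/6 background. Control embryos were LckCre- and knockout (KO) embryos LckCre+. LckCre is driven by the T lineage promoter of Lck, so the Cre transgene and the loss of Bcl6, a transcriptional repressor, cannot be told apart. CD25 positive cells came from unstimulated thymi of control and KO embryos. ISP cells (CD8+CD4-, immature single positive) and DP cells (CD8+CD4+) of each genotype came from thymi kept for 2 days on filters with 1 µg/ml anti-CD3, which mimics a receptor signal. Population and anti-CD3 culture therefore cannot be told apart when ISP or DP cells are compared with CD25 cells. The stage labels give E16.5 and the treatment protocol E17.5. The labels leave unstated whether both libraries of a group are from different embryos or cultures, so p-values measure the spread between these samples, which may be technical.

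Each library held between 9657633 and 14227980 reads in genes. Values are RPKM, reads per kilobase of gene length, with library size set on a median-of-ratios scale. Division by length allows levels of different genes to be compared. The labelled populations were separated by their markers. Il2ra, the CD25 antigen, was at 537.6 to 603.3 RPKM in CD25 libraries and at most 44.7 in the others, and Cd4 was at 190.6 to 344.1 in DP and 13.9 to 20.5 in ISP. Bcl6 itself had a mean of 71.2 RPKM in DP control and 99.5 in DP KO, so the gene-level value does not show the deletion. In 6 of 8 libraries from anti-CD3 cultures, title and library name disagree on population or genotype. Titles were followed here, and by title the Cd4 ranges of DP and ISP do not overlap. By title 70.6% of genes were called between DP and ISP, and by library name 0 were. Cd4 does not check the genotype that a title gives. Grouped by library name, the DP difference of Pdlim4 between genotypes changes direction, from 2.84 to -1.45 on the log2 scale. Ddx3y, a Y-linked gene, ranged from 0 to 0.0979 RPKM in ISP KO and DP KO and from 7.28 to 56.3 in the remaining libraries, so it differs along with genotype in ISP and DP. The part of embryo sex in the results was not tested.

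5 of the 6 members have an entry among the RefSeq promoters of GRCm38.p6, which span 250 bases before to 50 after each start, and Pdlim2 is not among them. The promoters of Pdlim4 (chr11:54068968-54069267, minus strand) and Pdlim1 (chr19:40271567-40271866, minus strand) are shown because these were the members with the highest levels and the most alike in pattern over the libraries. Each is written 5′ to 3′ on the strand of the gene, with every GC box, GGGCGG on either strand, and every CCAAT box in capitals.
Pdlim4: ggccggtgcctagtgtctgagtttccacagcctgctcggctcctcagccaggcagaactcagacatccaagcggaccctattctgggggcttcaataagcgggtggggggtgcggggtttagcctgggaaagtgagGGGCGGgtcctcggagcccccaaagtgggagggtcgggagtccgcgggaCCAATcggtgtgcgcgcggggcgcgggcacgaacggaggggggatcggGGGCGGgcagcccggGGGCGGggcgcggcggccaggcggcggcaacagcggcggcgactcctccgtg
Pdlim1: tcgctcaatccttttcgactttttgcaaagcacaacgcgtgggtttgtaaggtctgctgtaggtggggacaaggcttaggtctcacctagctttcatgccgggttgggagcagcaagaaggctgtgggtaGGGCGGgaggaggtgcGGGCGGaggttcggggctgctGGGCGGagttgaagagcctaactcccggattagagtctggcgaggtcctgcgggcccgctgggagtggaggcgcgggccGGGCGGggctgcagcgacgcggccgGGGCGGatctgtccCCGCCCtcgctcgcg
The Pdlim4 promoter held 3 GC boxes, which begin 114, 17 and 2 bases before the start, and 1 CCAAT box that begins 65 bases before it. Its GC content was 71.7%, at percentile 92.6 of 32851 promoters whose median was 52.7%. The Pdlim1 promoter held 6 GC boxes and no CCAAT box, at a GC content of 65.7%. Over all promoters, 35.7% held a GC box and 37.4% a CCAAT box on either strand. Motifs of the BCL6 type (TTCCTNGAA) and of the STAT type (TTCNNNGAA, which includes every match of the former) were searched for on both strands in all 7 entries of the 5 members, and 0 entries held either. These letters occur in 1.59% and 8.3% of all promoters, respectively. The TATA box TATAAA, in 13.6% of all promoters, was found in 1 of the 7 entries, an internal start of Pdlim5.

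Pdlim4, also called RIL, binds alpha-actinin and actin filaments through its PDZ domain. The gene lies on chromosome 11 from 54054928 to 54069014, minus strand (GRCm38, GENCODE M21). In CD25 positive cells it was at 23.1 and 27.5 RPKM in control and at 31.3 and 29.6 in KO libraries. In ISP cells it was at 116.3 and 105.1 in control and 181.4 and 154.5 in KO. Every ISP library was thus above every CD25 library, in both genotypes.

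Pdlim4 rose 5.00-fold from CD25 to ISP cells over both genotypes (log2 2.26, SE 0.10, limma adjusted p = 2.17e-09). The step was 4.37-fold in control libraries (110.7 ± 7.95 against 25.3 ± 3.11 RPKM, SD, n = 2 each; limma adjusted p = 1.94e-07) and 5.52-fold in KO libraries (167.9 ± 19.1 against 30.4 ± 1.22; limma adjusted p = 6.98e-08). In bulk samples such as these, fewer cells of a type and less RNA per cell cannot be told apart. Across all genes tested, 63.9% were called between ISP and CD25, 33.1% as higher in ISP and 30.9% as lower, so a call in this step is common. In control libraries alone 50% were called (26.3% higher, 23.7% lower), and in KO libraries alone 53.7% (27.6% higher, 26.1% lower).

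DP cells differed by genotype in the level of Pdlim4. Both DP control libraries were at 20.9 RPKM, and the DP KO libraries were at 130.4 and 185.6. The groups do not overlap, and the lower KO library was above both ISP control libraries. The means were 20.9 ± 0.00745 and 158.0 ± 39.0 RPKM (SD, n = 2 each), a 7.55-fold difference or 2.84 on the log2(RPKM + 1) scale. On that scale this was the second largest rise of all genes tested in that comparison, after Gh (3.15) and before Acoxl (2.80). It was the largest of 2164 genes that averaged at least 50 RPKM in DP KO. By ratio of means the order differs, as Acoxl went from 0.416 RPKM in DP control to 8.96 in DP KO. For Pdlim4, DP was 5.29-fold below ISP in control libraries (log2 -2.35). In KO libraries its DP level was 0.941 times the ISP level (log2 -0.11). No test is given for these values because the gene was chosen from them.

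Control and KO can be tested in the populations that the choice did not use. Tests with ISP libraries still take their spread from all 12 libraries. Their p-values are thus not fully independent of the DP values that chose Pdlim4. ISP libraries of the KO lay above the control libraries without overlap, and the ratio was 1.52 (log2 0.59, SE 0.14), at an unadjusted p of 0.00113 and a limma adjusted p of 0.0948. This misses the threshold of 0.05. The adjusted p ran from 0.0158 to 0.363 over the alternatives with the same groups. It passed with voom on recovered reads (limma-voom adjusted p = 0.0158), with ISP libraries alone in the fit (limma adjusted p = 0.0335) and without DP KO library 1 or 2 (0.0274 and 0.0276). Grouped by library name, the ISP difference changes direction, to -1.01 (limma adjusted p = 0.389). In CD25 the ratio was 1.20 (log2 0.26, SE 0.10, limma adjusted p = 0.470), also without overlap. The difference between the ISP and CD25 genotype effects was 0.33 (SE 0.20, limma adjusted p = 0.613), and -1.27 by library name (limma adjusted p = 0.488). In order of mean level, Pdlim4 ran from DP control over CD25 control, CD25 KO, ISP control and DP KO to ISP KO. DP KO and ISP KO overlap, so the top of that order is not separated by the spread between libraries.

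Markers of other cell types moved in the same comparisons. The 10 myeloid markers had sums between 17.9 and 18.2 RPKM in ISP control libraries and between 49.9 and 67.1 in those of the KO. In DP these sums were 14.7 to 21.4 for control and 66.1 to 81.0 for KO. Lyz2, lysozyme of macrophages and granulocytes, was called higher in ISP KO (5.11 to 35.1 RPKM, limma adjusted p = 0.0189) and DP KO (9.26 to 54.5, limma adjusted p = 0.00112). In all, 4 of 9 tested markers were higher in DP KO and 1 of 9 in ISP KO, and Lyz2 made up much of the KO sums. In DP KO, Itgam and Mpo pointed lower without a call (log2 -0.18 and -0.14). Cd68, C1qa and S100a8 pointed higher without a call (0.23, 0.55 and 1.45). The myeloid sums in unstimulated CD25 cells were 29.7 to 47.2 for control and 46.3 to 60.6 for KO. The 8 markers of NK and innate lymphoid cells summed to 606.7 to 641.3 RPKM in CD25 control and 1072 to 1317 in ISP control, and 7 of 8 were higher in ISP than in CD25 and 1 lower. In DP they summed to 114.8 to 131.1 in control and 185.7 to 230.0 in KO. Gzma, Tyrobp and Fcer1g, 3 of the 8, were called higher in DP KO (limma adjusted p = 9.93e-04, 3.10e-04 and 0.0046) and 0 in ISP KO. Most of the DP sum was Gzma, with means of 98.3 RPKM in control and 166.5 in KO. The rest of the list was not called in DP KO. Ncr1, Klrd1, Klrb1c and Klrk1 pointed lower there (log2 -0.54, -0.17, -0.04 and -0.04) and Nkg7 higher (0.09). Of 10 thymocyte markers 3 were lower in DP KO. The 6 mast cell markers summed to 13.4 to 17.5 RPKM in ISP control and 27.5 to 34.1 in ISP KO. Of 2 tested, 0 were called there or in DP KO. Sums of the 7 thymic epithelium markers were 115.5 to 116.7 RPKM in CD25 control and 21.3 to 21.6 in ISP control. In DP they were 21.8 to 22.0 in control and 27.8 to 28.2 in KO. Of 3 tested, 1 was higher in DP KO and 2 were lower in ISP than in CD25. Further lists, among them endothelium, are not described here. For the 10 skeletal and cardiac muscle markers the sums were 7.18 to 7.82 RPKM in DP control and 10.0 to 11.8 in DP KO, and they were 6.70 to 7.17 in CD25 control and 13.7 to 14.9 in ISP control. Of the 3 muscle markers tested, 1 was higher in DP KO and 2 were higher in ISP than in CD25, while Myog and Des were at 0 in all 12 libraries. Beside these marker counts, 14.1% of all genes were called higher and 7.78% lower in DP KO, and 0.257% higher in ISP KO. Between ISP and CD25, 33.1% of all genes were called higher in ISP and 30.9% lower. The part of these cell types in the Pdlim4 results was not tested.

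**Figure D1:**
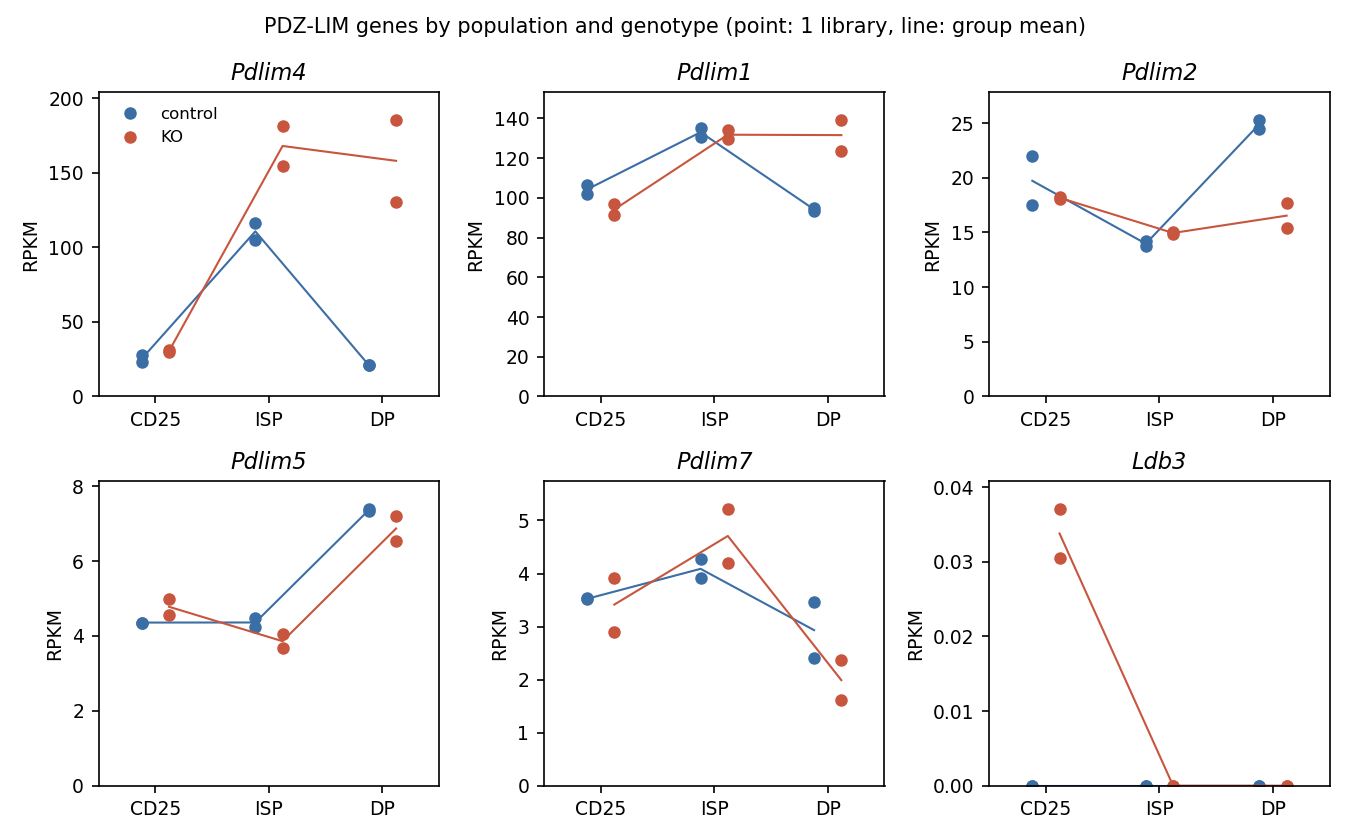
RPKM of each of the 6 members (one panel each, own linear axis from 0) in every library by population, with control and KO points side by side and lines that join the group means of 2 libraries. Pdlim4 stands at 20.9 RPKM in both DP control libraries and at 130.4 and 185.6 in DP KO, while Ldb3 stays near 0.

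Pdlim1, also called CLP36 or Elfin, is the other ALP-type member with a high level, and it binds alpha-actinin as well. It lies on chromosome 19 from 40221173 to 40271842, minus strand. In CD25 cells its level was 101.9 and 106.6 RPKM for control and 97.2 and 91.2 for KO. In ISP it was 130.7 and 135.4 for control and 129.7 and 134.0 for KO. In DP it was at 93.2 and 95.1 in control and 123.8 and 139.4 in KO. The DP control libraries were below all ISP libraries, and the DP KO libraries spanned the ISP values.

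Pdlim1 rose 1.34-fold from CD25 to ISP (log2 0.42, SE 0.05, limma adjusted p = 7.52e-06) and was lower in DP than in ISP over both genotypes (log2 -0.25, SE 0.05, limma adjusted p = 3.89e-04). The DP step was -0.49 in control libraries (limma adjusted p = 3.27e-05) and -0.0045 in KO libraries (limma adjusted p = 0.963). After rescaling each library to an equal sum, the step over both genotypes was -0.07 (adjusted p = 0.109), since that scaling shifts all genes by 0.18 between DP and ISP. The DP genotype ratio of 1.40 (log2 0.48) has no test. In CD25 and ISP its genotype differences were -0.15 and -0.01 (limma adjusted p = 0.570 and 0.960).

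Pdlim2 ran the other way. It lies on chromosome 14 from 70164218 to 70177681, minus strand. CD25 cells had 17.5 and 22.0 RPKM for control and 18.3 and 18.1 for KO. ISP cells had 14.2 and 13.8 for control and 14.86 and 15.04 for KO, so the ISP libraries were below all CD25 libraries. In DP it was at 25.3 and 24.5 in control and 17.7 and 15.4 in KO. Pdlim2 fell from CD25 to ISP (log2 -0.36, SE 0.07, limma adjusted p = 7.25e-04) and rose from ISP to DP over both genotypes (0.46, SE 0.07, limma adjusted p = 8.53e-05). The DP step was 1.78-fold in control libraries (limma adjusted p = 2.33e-05) and 0.13 on the log2 scale in KO libraries (limma adjusted p = 0.278). DP KO averaged 0.664 times DP control (log2 -0.57, no test). CD25 and ISP showed genotype differences of -0.10 and 0.09 (limma adjusted p = 0.825 and 0.769).

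Of the Enigma-type members, Pdlim5, which binds protein kinase C isoforms, was at a low level. It lies on chromosome 3 from 142239590 to 142395696, minus strand. CD25 cells had 4.36 and 4.36 RPKM for control and 4.57 and 4.99 for KO, and ISP cells 4.25 and 4.47 for control and 4.05 and 3.67 for KO. DP control was at 7.33 and 7.39, and DP KO at 7.19 and 6.55, above every CD25 and ISP library. The DP step was 1.73-fold over both genotypes (log2 0.67, SE 0.07, limma adjusted p = 3.94e-06), and it was called in control and in KO libraries alone (0.64 and 0.70, limma adjusted p = 1.43e-04 and 1.10e-04). From CD25 to ISP its log2 difference was -0.12 (limma adjusted p = 0.148). In CD25 and ISP its genotype differences were 0.11 and -0.14 (limma adjusted p = 0.825 and 0.599), and in DP it was -0.09 with no test.

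Pdlim7, the Enigma protein, lies on chromosome 13 from 55495795 to 55513676, minus strand, and rests on 46 to 205 reads per library. CD25 cells had 3.51 and 3.53 RPKM for control and 3.92 and 2.91 for KO, and ISP cells 3.91 and 4.27 for control and 5.22 and 4.20 for KO. In DP it was at 3.46 and 2.41 in control and 2.36 and 1.62 in KO. Pdlim7 was lower in DP than in ISP over both genotypes (log2 -0.66, SE 0.12, limma adjusted p = 4.35e-04) and in KO libraries alone (-0.94, limma adjusted p = 6.96e-04), while control libraries gave -0.38 (limma adjusted p = 0.0741). From CD25 to ISP it was 0.27 higher (SE 0.12, limma adjusted p = 0.0738), and genotype gave -0.04 in CD25 and 0.16 in ISP (limma adjusted p = 0.955 and 0.768).

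Ldb3, a Z-disc protein also called ZASP or Cypher, had 2 and 3 reads in the CD25 KO libraries (0.0305 and 0.0371 RPKM) and 0 reads in the other 10. It lies on chromosome 14 from 34526603 to 34588682, minus strand, and is the member that did not pass the filter. Pdlim3, the remaining gene of the family, was at 0 in all 12 libraries.

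Over the 5 members tested, 0 were called between genotypes in CD25 by limma (1 at an unadjusted p under 0.05, as were 9.14% of all genes, and 0 with voom), beside 0.0188% of all genes called (0.0094% higher and 0.0094% lower). In ISP the count was 0 (1 at an unadjusted p under 0.05, as were 13.2% of all genes, and 1 with voom, Pdlim4 in each), beside 0.354% of genes called (0.257% higher and 0.0973% lower). In DP 21.9% of genes were called, 14.1% as higher and 7.78% as lower, and no count of members is read against it. From CD25 to ISP, 2 members rose, 1 fell and 2 were not called, where 63.9% of genes were called. From ISP to DP, 2 of the 4 members other than Pdlim4 rose and 2 fell, where 70.6% of all genes were called (35.6% higher and 35% lower). Of these 4, control libraries gave 2 higher and 1 lower (63.9% of genes called, 31.5% higher and 32.4% lower), and KO libraries 1 higher and 1 lower (55.8% of genes called, 27.8% higher and 28% lower). Whether the DP step of a member differs between genotypes was not tested, since that difference contains the values that chose Pdlim4.

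**Figure D2:**
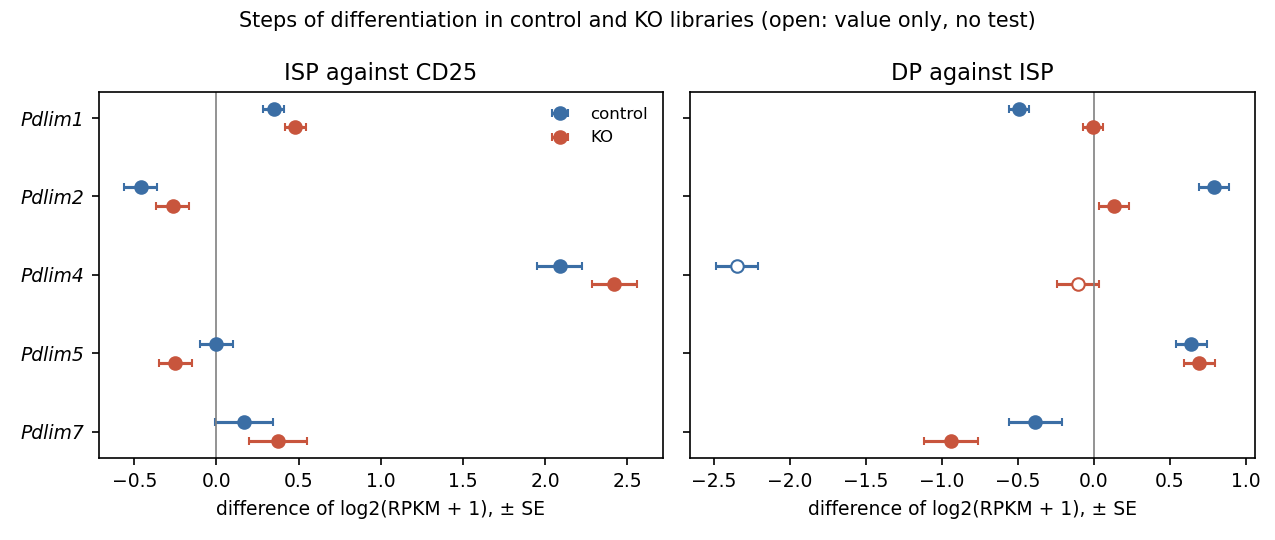
Log2 difference of each tested member from CD25 to ISP and from ISP to DP (horizontal axis, difference of log2(RPKM + 1)), in control and in KO libraries, with the fit's standard error as bars and open points for Pdlim4 where no test is given. Pdlim4 falls by 2.35 from ISP to DP in control and by 0.11 in KO libraries.

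Since the values are per length, the members can be added. The family sum in CD25 cells was 157.2 ± 9.65 RPKM for control and 151.0 ± 6.04 for KO (SD, n = 2 each). ISP sums were 266.2 ± 4.51 for control and 323.3 ± 16.9 for KO. In DP it was 150.3 ± 0.0763 in control and 315.0 ± 47.5 in KO. Pdlim4 and Pdlim1 together carried most of the sum in every group. Pdlim4 made up 16.1% of it in CD25 control, 41.6% in ISP control and 13.9% in DP control, against 20.1%, 51.9% and 49.8% in the KO groups. The ratio of Pdlim4 to Pdlim1 was 0.242, 0.833 and 0.222 in the CD25, ISP and DP control groups and 0.323, 1.28 and 1.19 in the KO groups. Pdlim1 was thus the more abundant of the pair in control cells, and Pdlim4 in ISP and DP cells of the KO. The library with the highest to the lowest level differed 8.87-fold for Pdlim4 and 1.53-fold for Pdlim1, which is the narrowest range of the 5 members.

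**Figure D3:**
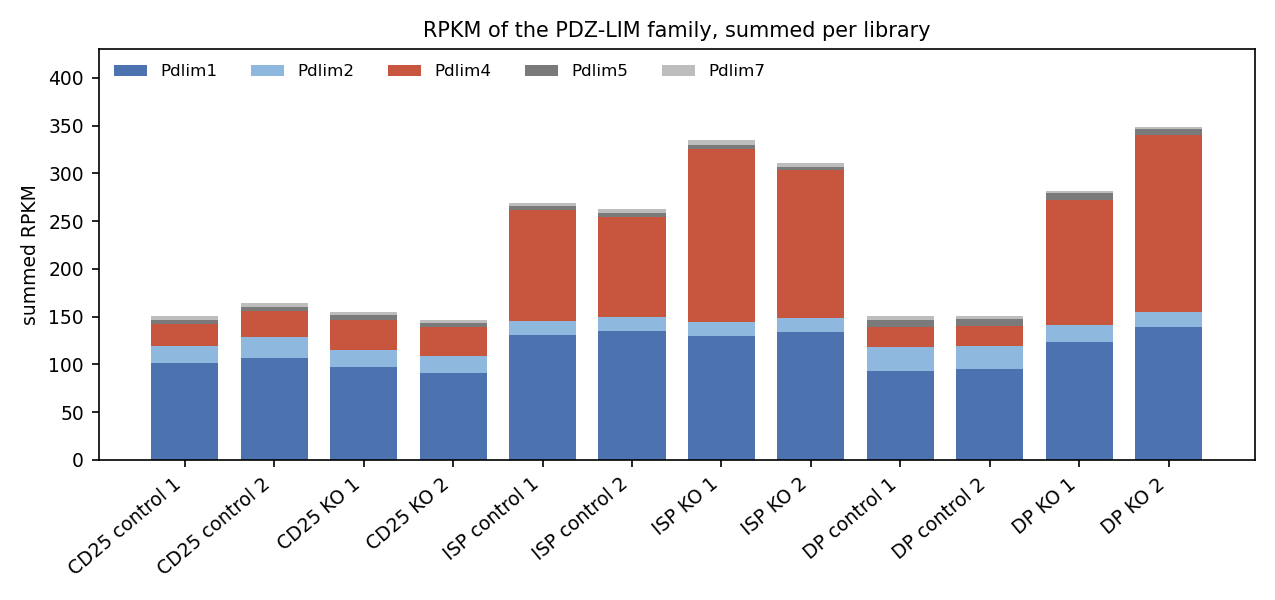
Family sum in RPKM per library (stacked bars from 0, one per library in 6 groups), split into members. The Pdlim4 segment is 13.9% of the bar in DP control and 49.8% in DP KO.

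Other genes of the pathway were taken from 3 lists. Their counts stand beside the share of all genes called. That share was 0.0188% between genotypes in CD25, 0.354% in ISP and 21.9% in DP (14.1% higher and 7.78% lower). It was 63.9% between ISP and CD25 and 70.6% between DP and ISP, so calls in these steps are common. Rescaling each library to an equal sum shifts all genes between KO and control in DP by -0.11, between ISP and CD25 by -0.12 and between DP and ISP by 0.18. The share of called genes that were higher moved with it from 64.5% to 36%, from 51.7% to 37.9% and from 50.4% to 63.7%, so counts of a list are given with both scalings where they part. The first list held 14 binding partners of PDZ-LIM proteins, of which 9 were tested. 0 of them were called between genotypes in CD25 and ISP, and in DP 1 fell, Stat4, a signal transducer that Pdlim2 marks for degradation (25.2 to 18.6 RPKM, log2 -0.42, limma adjusted p = 0.00241). After rescaling 4 fell there. From CD25 to ISP 3 rose and 5 fell, with a median of -0.38 beside 0.01 over all genes. Prkcb, a protein kinase C isoform, rose from 35.1 to 73.8 RPKM (2.10-fold, limma adjusted p = 6.96e-10), and Ptpn13, a phosphatase with PDZ domains, fell from 6.42 to 1.65 (limma adjusted p = 6.67e-07). From ISP to DP 3 rose and 4 fell, or 4 and 3 after rescaling. Of the non-muscle alpha-actinins, Actn1 fell from 38.4 RPKM in CD25 to 25.6 in ISP over both genotypes (log2 -0.61, limma adjusted p = 8.01e-04). The step was -0.90 in control libraries (limma adjusted p = 8.62e-04) and -0.31 in KO libraries, without a call (limma adjusted p = 0.143). Actn4 was at 82.1 RPKM in CD25 and 101.0 in ISP (limma adjusted p = 4.56e-05), a level near that of Pdlim1.

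Of 35 other cytoskeletal LIM genes, 22 were tested in CD25 and 23 in the rest. Between genotypes 0 were called in CD25 and ISP. In DP 1 rose and 3 fell, or 1 and 5 after rescaling. The gene that rose was Lpp, a LIM protein of focal adhesions, at 3.19 RPKM in DP control and 10.3 in DP KO (3.22-fold, log2 1.40, limma adjusted p = 2.95e-04). Lpp in ISP was at 2.22 in control and 4.12 in KO (log2 0.67, limma adjusted p = 0.0948). Ablim1, Lims1 and Mical1 fell in DP (log2 -0.43, -0.39 and -0.35, limma adjusted p = 0.00251, 0.00661 and 0.0189). From ISP to DP 11 rose and 7 fell, or 15 and 4 after rescaling. From CD25 to ISP 8 rose and 8 fell, or 7 and 9 after rescaling, among them Limd2 (2.67-fold higher, 87.8 to 234.8 RPKM, limma adjusted p = 2.79e-10) and Crip1 (2108 to 1127 RPKM, limma adjusted p = 8.64e-08).

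In the third list, 28 of 33 genes of actin filaments and adhesion were tested. Between genotypes 0 were called in CD25 and ISP. In DP 7 rose and 1 fell, but after rescaling 4 rose and 7 fell, so the balance of the list there depends on the scaling. Among those that rose in the deposited values were the myosin light chains Myl12a (177.7 to 231.9 RPKM, log2 0.38, limma adjusted p = 0.00171) and Myl12b (291.0 to 350.0, log2 0.26, limma adjusted p = 0.00895) and tropomyosin Tpm3 (110.8 to 138.4, log2 0.32, limma adjusted p = 0.00624). From CD25 to ISP 17 rose and 3 fell, or 14 and 5 after rescaling, with a median of 0.20 beside 0.01 over all genes. Tpm4, a tropomyosin, rose 2.75-fold (31.2 to 85.9 RPKM, limma adjusted p = 1.00e-09). From ISP to DP 12 rose and 9 fell, or 15 and 5 after rescaling, and Tpm4 dropped to 44.1 RPKM (limma adjusted p = 2.19e-08).

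The pattern of Pdlim4 was compared with that of 8519 genes by Pearson correlation over the 12 libraries, as a description. The libraries share their grouping, so r reflects 6 groups rather than 12 free points. The 8 closest were Ebp (r = 0.975), Nsmce2 (0.973), Tceb1 (0.968), Glipr2 (0.965), Cdca7 (0.958), Ube2m (0.951), Pdlim1 (0.945) and Cebpb (0.943). Over the 6 group means, 4 of the 8 closest were the same genes, namely Ebp, Glipr2, Nsmce2 and Tceb1. Ebp, an enzyme of sterol synthesis, moved between group means of 29.4 and 38.4 RPKM, whereas Pdlim4 moved between 20.9 and 167.9. Cebpb, a transcription factor of the myeloid lineage among others, came closer in size, at 4.98 RPKM in CD25 control, 18.7 in ISP control, 5.37 in DP control and 13.4 in DP KO. Within the family r was 0.945 for Pdlim1, -0.808 for Pdlim2 and -0.235 for Pdlim5.

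**Figure D4:**
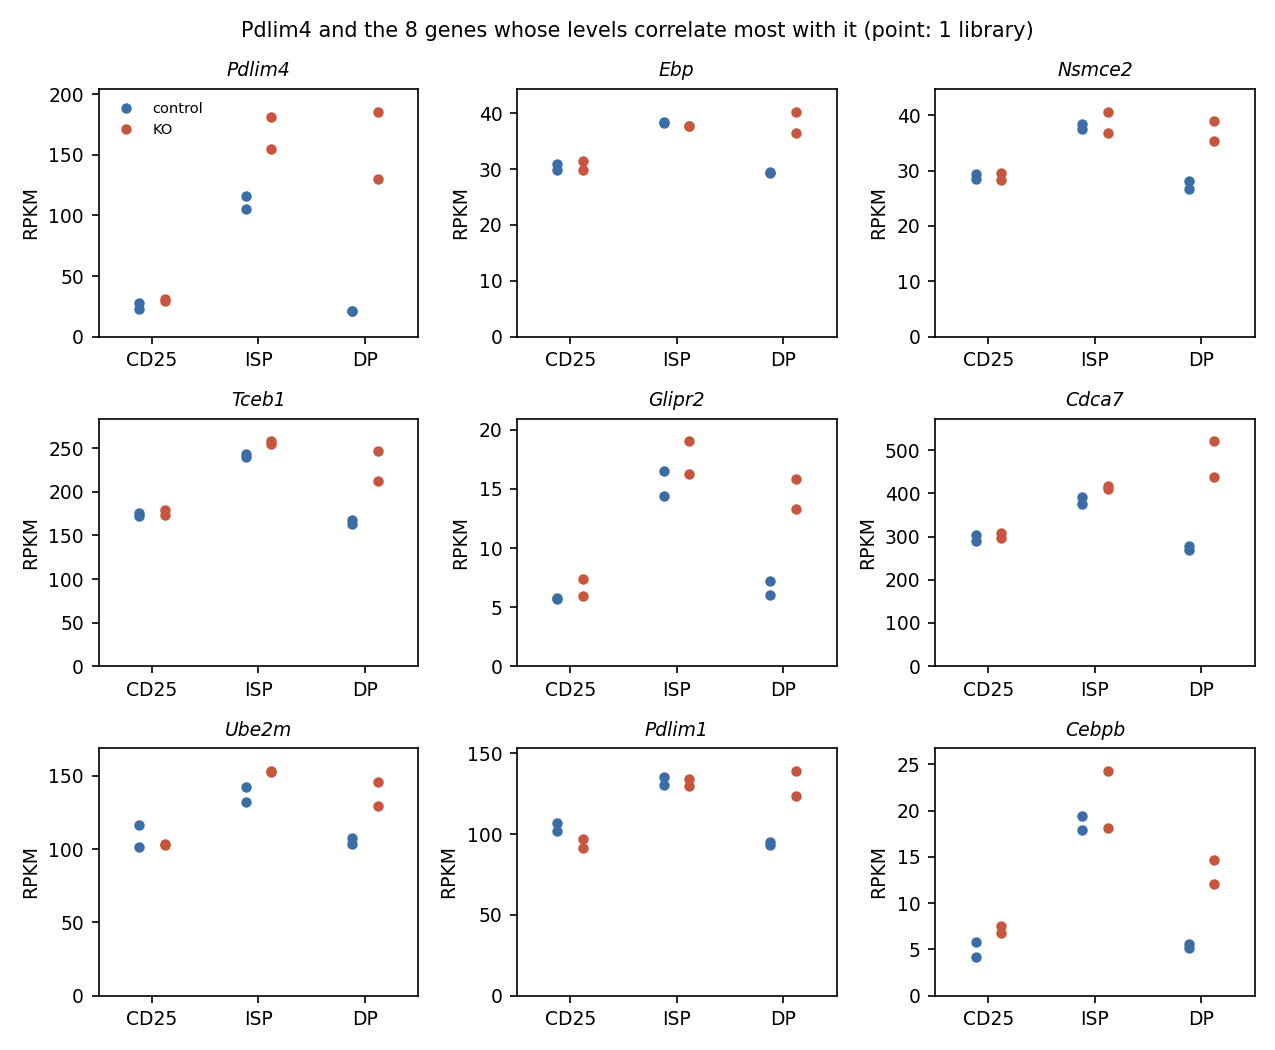
RPKM by library (linear axes from 0) for Pdlim4 and the genes closest to it by Pearson correlation, by population and genotype. All rise from CD25 to ISP and lie lower in DP control than in DP KO, with Ebp between 29.4 and 38.4 RPKM in group means and Pdlim4 between 20.9 and 167.9.

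Around Pdlim4 on chromosome 11, 5 protein-coding genes on each side were examined, of which 9 of 10 were in the table and 3 passed the filter. The nearest protein-coding gene upstream is P4ha2, a subunit of collagen prolyl 4-hydroxylase, on the plus strand from 54100095 to 54131665, which is 31.1 kb from the start of Pdlim4. CD25 cells had 0.327 and 0.330 RPKM for control and 0.587 and 0.444 for KO. ISP cells had 0.696 and 0.512 RPKM for control and 1.11 and 0.872 for KO. DP cells had 0.122 and 0.349 for control and 0.810 and 1.17 for KO. These values rest on 3 to 34 reads per library, and P4ha2 passed the filter only through groups in which it was high. They are therefore a description, with no test. KO and control libraries of P4ha2 do not overlap in CD25, ISP or DP. With 2 libraries per group, and no share over all genes beside it, this is not read as a result. On the other side Slc22a5, a carnitine transporter, was at 4.65 RPKM in DP control and 4.88 in DP KO (limma adjusted p = 0.810), and Il3 and Meikin were at 0 in all 12 libraries.

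**Figure D5:**
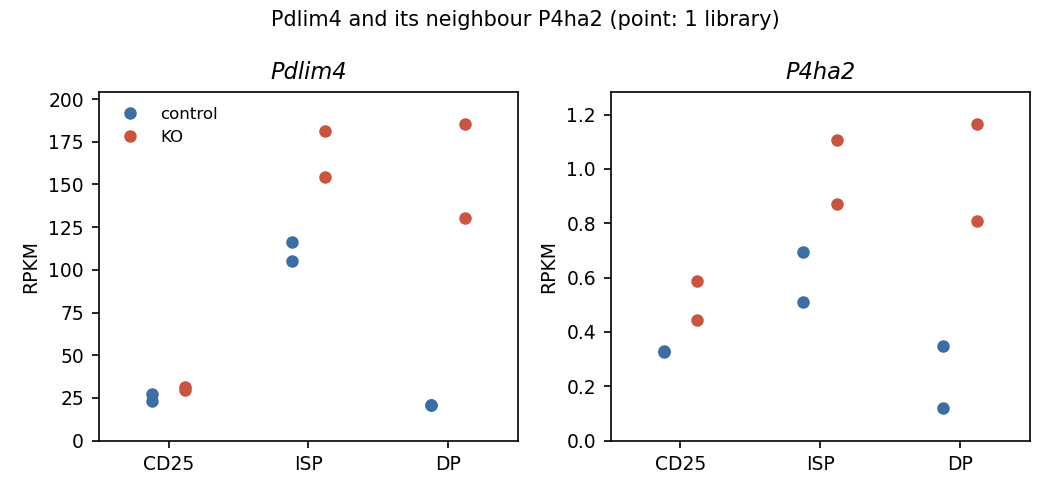
RPKM per library of Pdlim4 and its neighbour P4ha2 by population and genotype (linear axes from 0, each with its own scale). P4ha2 is at 0.122 and 0.349 in DP control and at 0.810 and 1.17 in DP KO, on far fewer reads than Pdlim4.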

How the data were processed

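The deposited table holds RPKM values that the authors computed per gene and library, on a median-of-ratios scale; the unit is read from the values, since the header names none. Per the submitters' processing notes, BWA and GRCm38 were used. The counter, annotation and filters: not given in the sources used here. Read numbers were recovered from the steps between low values (100% of 169595 values whole, tolerance 0.02 reads).

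Values were taken as log2(RPKM + 1), which understates the change of low genes, and fitted by limma 3.58.1 in R 4.3.3 with a trend. A gene needed 1 RPKM or more in 2 or more libraries. P-values were Benjamini-Hochberg adjusted over all tested genes, with a threshold of 0.05. Genotypes in CD25 were compared on 4 libraries (10636 genes, 2 residual df), and everything else on 12 libraries in 6 groups (11303 genes, 6 residual df). Adjusted p-values are from these fits unless another is named. The members and gene lists were chosen with earlier results of these data known. Named list genes are among the 4 with the smallest p in a list and comparison, neighbours are the 5 coding genes on each side, and genes alike to Pdlim4 reach a group mean of 5 RPKM. The fit was also run on data simulated with independent normal noise from its own variance estimates. This cannot show how well the model suits these libraries. Python 3.11.15 with pandas 2.3.3 and numpy 2.4.6 made the tables, and matplotlib 3.10.9 the plots. Alternatives covered the pseudocount, filter, scaling, voom, a replicate block, the libraries in the fit, grouping by library name and leaving out each library. The fit of KO libraries alone was added after seeing the data.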

Additional observations from a re-analysis of the deposited data

Results flagged for a closer look

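For 3 members the genotype differences of 2 populations pointed in opposite directions, with no overlap between KO and control libraries in either. Pdlim1 had a log2 difference between KO and control of -0.15 in CD25 and 0.48 in DP. Pdlim2 had 0.0916 in ISP and -0.57 in DP. The differences between these populations were not tested, because the DP values chose Pdlim4. Pdlim5 had 0.11 in CD25 and -0.14 in ISP, and the test of that difference gave -0.25 (SE 0.14, limma adjusted p = 0.604). Against CD25, the Pdlim5 value in DP was -0.0891, and this difference was not tested. Such a pattern in at least 1 pair of populations was found in 3 of 5 members tested and in 25.1% of all 11303 genes. By pair it was found in 7.95% of genes for CD25 and ISP (1 member), 9.68% for ISP and DP (1 member) and 15.4% for CD25 and DP (2 members).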

How the results depend on the processing

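The rise of Pdlim4 from CD25 to ISP kept its direction and its call under all 21 alternatives. Its log2 size ran from 2.09 to 2.42 over those with the groups by title. Grouped by library name the rise was 1.66, with a limma adjusted p of 0.0475, just under the threshold of 0.05. The DP difference of Pdlim4 between genotypes ran from 2.58 to 3.09 leaving out a library. The grouping by library name turned the DP genotype differences of Pdlim4 (-1.45), Pdlim1 (-0.27), Pdlim2 (0.51) and Pdlim5 (0.68), those in ISP of Pdlim4 (-1.01), Pdlim5 (0.66) and Pdlim7 (-0.81), the DP step of Pdlim7 (0.23) and the difference of genotype effects of Pdlim4 (-1.27) and Pdlim5 (0.55). Under it 5502 genes were called in ISP, 5622 in DP, 0 between DP and ISP and 3372 for the difference of genotype effects, with 2, 0 and 1 members in ISP, DP against ISP and that difference. The cause was not tested.

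Genes called between genotypes in CD25 were 2, against 1 with a pseudocount of 0.1, 1 without the filter, 14 with voom, 9 with all 12 libraries in the fit, and 4 to 93 leaving out a library (59 without KO 1, 93 without KO 2). In ISP they were 40, against 8 without the filter, 181 with voom, and 6 to 56 leaving out a library (17 and 6 without control 1 and 2, 11 without KO 2). In DP 2476 became 844 to 2604 (1102 and 1177 without control 1 and 2, 844 without KO 2). The difference of genotype effects had 0 genes (1105 at an unadjusted p under 0.05), against 1 with a pseudocount of 0.1, 2 without the filter, 19 with voom, and 0 to 3 leaving out a library.

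Members called in ISP between genotypes were 0, against 1 with voom, 1 with ISP libraries alone, and 0 to 1 leaving out a library. From ISP to DP 4 became 2 in KO libraries alone. Pdlim7 between ISP and CD25 was called with voom (adjusted p = 0.0391), ISP and CD25 alone (0.0409) and without CD25 KO 1 (0.0406). Pdlim5 there was called after rescaling (-0.25, adjusted p = 0.0212), which shifts all genes by -0.12. Deviations of same-numbered libraries correlated at -0.0658 to 0.125, with the highest value between ISP control and DP control. This cannot show whether libraries share an embryo or culture, which the labels leave unstated. With the replicate block, 3 genes were called in CD25, 42 in ISP and 1 for the difference of genotype effects, and Pdlim7 between ISP and CD25 had an adjusted p of 0.0355. Low reads limit Pdlim7, Ldb3 and P4ha2.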
